A study of Ovis aries with 6 samples.

Results

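Hu sheep are a Chinese breed whose newborn lambs carry a wavy fleece, and the series compared dorsal skin of 2-day-old Hu lambs with a large wave coat (n = 3) and with a small wave coat (n = 3). The lambs had 1 sire, and each large wave lamb was matched with a small wave lamb of the same dam, per the design text. RNA of each lamb was hybridised to its own 1-colour oligonucleotide array, so that there were 6 arrays in all. The genes described here are 5 of the BMP, activin and TGF-beta family: the ligand genes BMP4, INHBA and TGFB1 and the receptor genes BMPR1B and ACVR2A. They were found through the RefSeq accession of each probe, which named 500 genes on the array, and they are represented by 8 of its 15008 probes.

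The family signals through secreted ligand dimers that bring together type I and type II receptor kinases, and these phosphorylate Smad proteins that regulate transcription. In skin, BMP signals from the dermis are known for holding hair follicle stem cells in rest and for differentiation of the hair shaft, and BMP4 is made by the dermal papilla. Activin and TGF-beta signals are known for follicle formation, the regression phase of the hair cycle and the production of dermal matrix. Each of these genes acts in several cell types of skin, and in whole skin fewer cells of a type and less RNA per cell cannot be told apart.

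All 5 genes were detected, and none passed the adjusted threshold between the coat patterns in the test across the array. The Feature Extraction mark for a signal well above background was set for 28 of 30 combinations of ligand probe and array, and for 16 of 18 combinations of receptor probe and array. Of the 4 combinations without the mark, 3 lay on the array of small wave replicate 3, the dimmest of the series. By the less strict mark for a positive and significant signal, 30 of 30 and 18 of 18 were detected. In large wave skin 15 of 15 ligand and 8 of 9 receptor combinations were well above background, against 13 of 15 and 8 of 9 in small wave skin. Of all spots without controls, 70.7, 61.1 and 68.2% had this mark on large wave replicates 1, 2 and 3. On small wave replicates 1, 2 and 3 the shares were 69.4, 57.3 and 51.4%, so fewer spots of the whole array were marked there too.

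Arrays differed in brightness, measured as the 75th percentile of the processed signal, which is the spot intensity after background subtraction. It was 392, 205 and 249 for the large wave lambs and 285, 152 and 94.7 for the small wave lambs, a 4.13-fold range. Here and below, the 3 values of a group are given in the order of replicates 1, 2 and 3. In each same-numbered pair the large wave array was the brighter. Differences below are therefore given on the log2 scaled signal, the log2 processed signal minus the log2 75th percentile of the same array. How bright a probe is also depends on its own sequence, so the signals of ligand and receptor probes, 3.65 to 587 and 8.04 to 335, give no order of abundance between genes.

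**Figure D1:**
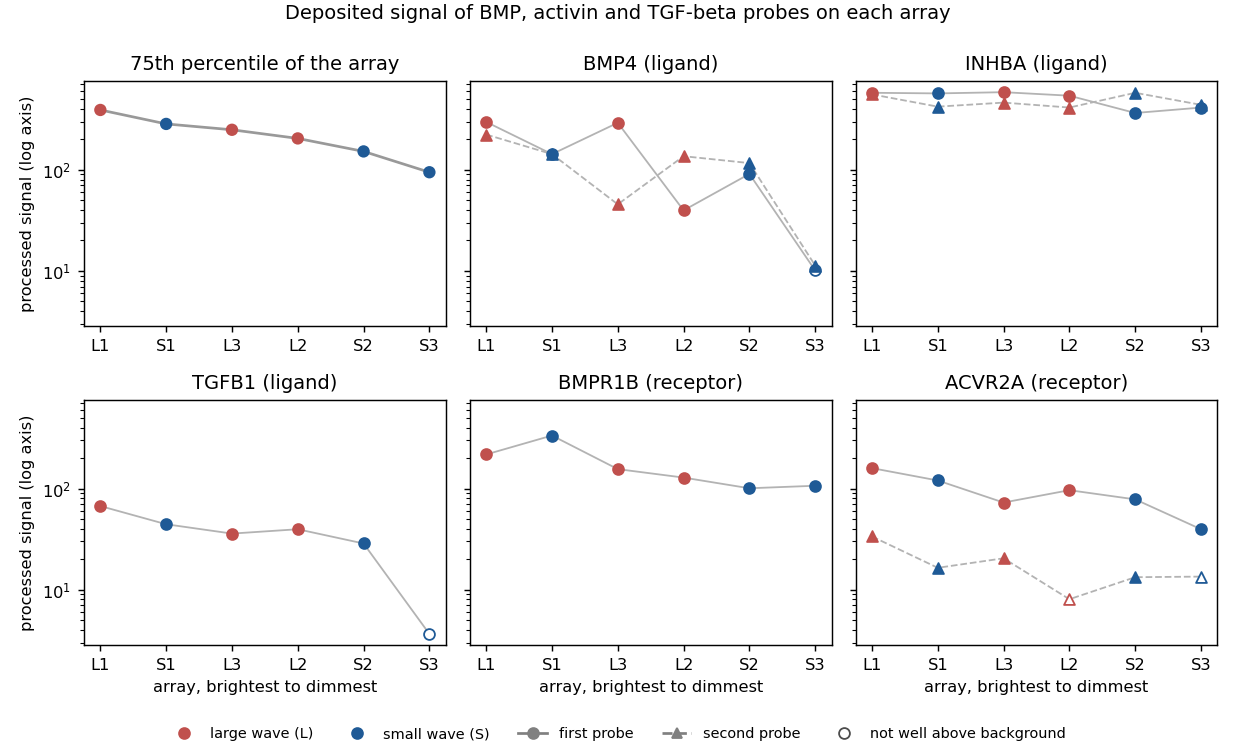
Processed signal (log axis, arbitrary units) of each probe on the 6 arrays, placed from the brightest to the dimmest array, with the 75th percentile of each array in the first panel; L and S are large and small wave with the replicate number, and open symbols are not well above background. INHBA stays between 365 and 587 on all arrays, whereas BMP4 and TGFB1 fall to 11.3 or less on small wave replicate 3.

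BMP4, the ligand made by the dermal papilla, had the largest spread between lambs. Its first probe (A_70_P030207), the brighter on average, had processed signals of 298, 39.7 and 292 for the large wave lambs. For the small wave lambs it had 143, 91.1 and 10.1, the last not well above background. The lowest large wave array thus lay below 2 of the 3 small wave arrays, and the groups overlapped. On small wave replicate 3 the spot's median pixel was 46 against 28.5 in its local background, where on large wave replicate 1 it was 364.5 against 29.

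On the scaled signal this BMP4 probe had a large wave mean of -0.84 ± 1.36 and a small wave mean of -1.65 ± 1.37 (SD, n = 3 each). They differed by 0.81 ± 0.86 (SE) with a 95% confidence interval of -1.18 to 2.80, and limma's adjusted p was 0.801. Here and below, SEs, intervals and p-values are from fits that do not pair the lambs, unless a replicate block is named. The pairs of lambs went both ways, by 0.60, -1.63 and 3.46 for pairs 1 to 3. The spread within groups, a residual SD of 1.36, was larger than that of 93.5% of the 10047 probes tested. Without small wave replicate 3 the difference was 0.024, without large wave replicate 2 it was 1.57, and without large wave replicate 3 it was 0.27.

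The second BMP4 probe (A_70_P030206) gave another order of the lambs. Its signals were 224, 136 and 45.6 for the large wave lambs and 143, 117 and 11.3 for the small wave lambs. Both probes were lowest on small wave replicate 3, but large wave replicate 2 was the low large wave array at the first probe and large wave replicate 3 at the second. Between the probes the log2 difference, first minus second, was 0.41, -1.78 and 2.68 for the large wave lambs and -0.00050, -0.36 and -0.16 for the small wave lambs. Its SD over the 6 arrays was 1.45, against a median of 0.61 over the 104 named genes with at least 2 probes measured on every array, of which 8 had a larger one. The second probe's wave difference was 0.20 ± 0.79 (SE, adjusted p = 0.957 by limma), and -0.59 without small wave replicate 3.

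**Figure D2:**
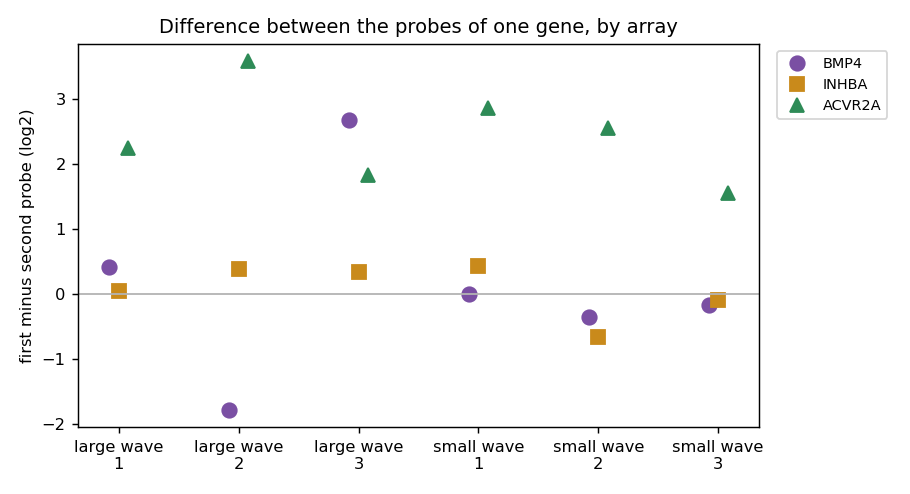
Log2 scaled signal of a gene's first probe minus that of its second probe on each of the 6 arrays, for BMP4, INHBA and ACVR2A. The BMP4 points of large wave replicates 2 and 3 lie at -1.78 and 2.68, and those of the 3 small wave arrays between -0.36 and -0.00050; only the change of a gene's points between arrays can be read, not their height.

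INHBA encodes the beta A subunit, of which activin A is the dimer, and its 2 probes showed the steadiest signal of the genes described. The first probe (A_70_P051057) had 579, 542 and 587 for the large wave lambs and 571, 365 and 413 for the small wave lambs. The second (A_70_P051056) had 558, 414 and 463 for the large wave lambs and 422, 579 and 440 for the small wave lambs. The highest of these 6 values was 1.61 times the lowest at the first probe and 1.40 times at the second, while array brightness ranged 4.13-fold. Over the 9220 tested probes with a value on every array the median of this ratio was 5.29, and 2.19% of them had a smaller ratio than the first probe and 0.629% a smaller one than the second. These ratios are of the processed signal. For the second probe on small wave replicate 3 it was 440, where the spot's median pixel was 310 against 31 in its local background. On large wave replicate 1 it was 558, where the median pixel was 588 against 29.

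With a steady signal on arrays of unequal brightness, INHBA had its highest scaled signal on the dimmest array. At the first probe it was 0.56, 1.40 and 1.24 for the large wave lambs and 1.003, 1.26 and 2.13 for the small wave lambs. The wave difference was -0.40 ± 0.40 (SE, 95% confidence interval -1.31 to 0.52, adjusted p = 0.791 by limma), negative in 2 of 3 pairs. At the second probe it was -0.76 ± 0.46 (adjusted p = 0.777 by limma), negative in 3 of 3 pairs. Single arrays moved both values: without small wave replicate 3 they were -0.065 and -0.44, and without small wave replicate 1 they were -0.63 and -1.26 (unadjusted p = 0.0049 and adjusted p = 0.237 by limma for the second). With array weights the second was -1.02 (adjusted p = 0.168 by limma). Quantile normalization gave -0.28 at the first probe and -0.63 at the second. With another background correction (normexp, offset 50) before it, the differences were -0.215 ± 0.30 and -0.219 ± 0.30 (SE). With no scaling between arrays, an alternative chosen after seeing the data, the differences were 0.37 and -0.0027, where the median of all tested probes was 0.74. With array brightness as a covariate they were 0.17 and -0.060.

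TGFB1, the ligand known for growth arrest of keratinocytes and for matrix production, was well above background on 5 of 6 arrays. Its 1 probe (A_70_P051421) had signals of 67.2, 39.6 and 35.9 for the large wave lambs and 44.4, 28.6 and 3.65 for the small wave lambs. The exception was small wave replicate 3. Scaled to the array, the other 5 arrays lay within 0.43 of each other on the log2 scale, and small wave replicate 3 lay 1.90 below the lowest of them. Large wave minus small wave was 0.69 ± 0.64 (SE; 95% interval from -0.79 to 2.18, with adjusted p = 0.786 by limma), and it had the same sign in 3 of 3 pairs, at 0.14, 0.041 and 1.90. Without small wave replicate 3 it was -0.023 ± 0.38 (SE), close to 0. It was 0.048 with array brightness as a covariate and 0.071 with arrays weighted by their quality. With the normexp background correction and quantile normalization it was 0.17 ± 0.14 (SE). The added offset of 50 narrows log2 differences between signals this dim, and the SE fell along with the difference. Other settings left it near the reported value, at 0.67 with quantile normalization alone, 0.67 in the deposited table and 0.60 with scaling to the median. With no scaling between arrays it was 1.46, where the median of all tested probes was 0.74.

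BMPR1B is a type I BMP receptor, known in sheep as the gene of the Booroola fecundity allele. It had 1 probe (A_70_P030276) printed in 5 spots, and the mean signal over the spots was 218, 129 and 156 for the large wave lambs and 335, 101 and 106.8 for the small wave lambs. The scaled signal was -0.85, -0.67 and -0.68 for the large wave lambs and 0.24, -0.59 and 0.17 for the small wave lambs. All 3 large wave arrays lay below all 3 small wave arrays, with a gap of 0.076 between large wave replicate 2 and small wave replicate 2. Of the 8 probes described, this was the 1 whose groups did not overlap, where the groups did not overlap for 11.2% of all tested probes, 6.18% with the large wave arrays below.

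The BMPR1B difference was -0.67 ± 0.35 (SE, 95% confidence interval -1.47 to 0.13, unadjusted p = 0.090 and adjusted p = 0.777 by limma), a 1.59-fold ratio of the group means. Pairs 1 to 3 gave -1.08, -0.076 and -0.85. The 3 large wave lambs were close to each other, with an SD of 0.10, and the small wave lambs spread over an SD of 0.46. Between the spots of 1 array the SD of the log2 signal was 0.038 to 0.38, with a median of 0.13. On small wave replicate 2, the array with the largest such SD, 1 spot had 63.3 where the median spot had 113. On small wave replicate 3, 1 of the 5 spots was marked as an outlier and left out. The difference was negative in all 6 fits that left out 1 array, from -0.94 to -0.52, and was -0.68 with array brightness as a covariate, but -0.32 with array weights. Unscaled it was 0.092, where the median of all tested probes was 0.74.

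ACVR2A, a type II receptor for activins that also takes part in BMP signalling, had 2 probes. The first (A_70_P051216) was well above background on all 6 arrays, with signals of 160, 96.5 and 72.8 for the large wave lambs and 120, 78.3 and 39.6 for the small wave lambs. Part of this range ran with array brightness, and the scaled signal was -1.29, -1.08 and -1.77 for the large wave lambs and -1.24, -0.96 and -1.26 for the small wave lambs. Its residual SD, 0.28, was smaller than that of most probes, with 13.5% of them below it. The wave difference was -0.23 ± 0.35 (SE, 95% confidence interval -1.05 to 0.58, adjusted p = 0.854 by limma), and negative in 3 of 3 pairs. Without large wave replicate 3 it was -0.037.

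The second ACVR2A probe (A_70_P051217) was dimmer, with 33.6, 8.04 and 20.4 for the large wave lambs and 16.5, 13.3 and 13.5 for the small wave lambs. It was not well above background on large wave replicate 2 and small wave replicate 3. Its difference was -0.46 ± 0.54 (SE, adjusted p = 0.816 by limma), negative in 2 of 3 pairs, and -0.094 without large wave replicate 2. Leaving out small wave replicate 3 gave -0.12. The SD over arrays of the difference between the 2 ACVR2A probes was 0.73 and that of the INHBA probes 0.42, against the median of 0.61 given above.

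**Figure D3:**
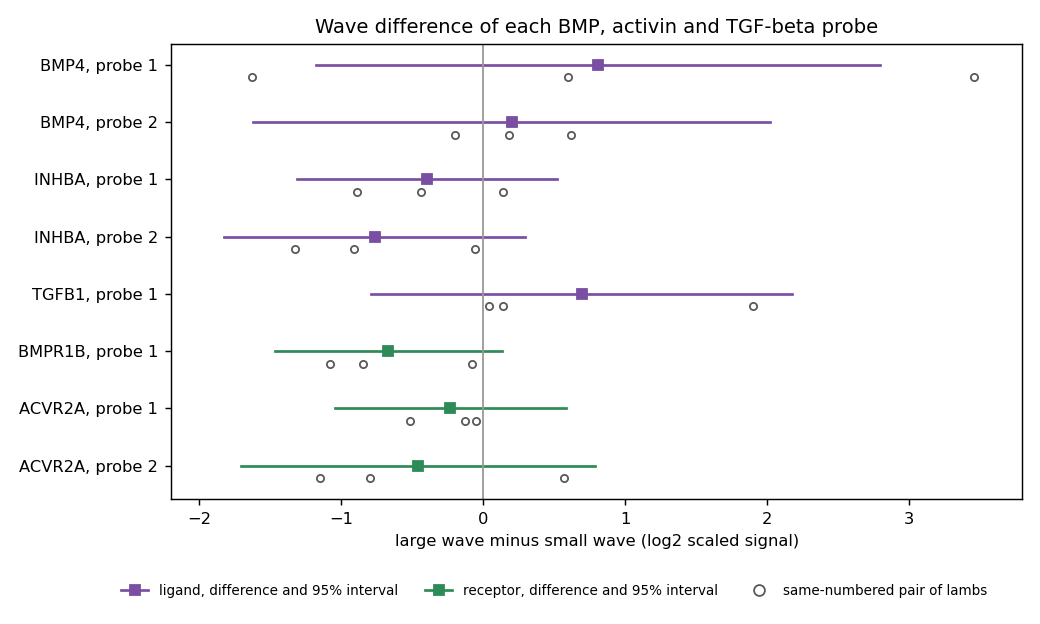
Large wave minus small wave difference of the log2 scaled signal for each probe (square) with limma's 95% confidence interval (line), ligands in purple and receptors in green, and the differences of the 3 same-numbered pairs of lambs (open circles). The intervals are from the fit that does not pair the lambs. Every interval spans 0. The receptor intervals are narrower than those of BMP4, but that of the second ACVR2A probe is wider than both INHBA intervals.

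Set side by side, 3 of 5 ligand probes were on the higher and 2 on the lower side in large wave skin (median difference 0.20), and all 3 receptor probes were on the lower side (median -0.46). Over all tested probes 48.7% had higher values and the median was -0.020. By limma 0 of 8 probes had an adjusted p below the threshold, where 0% of all tested probes did, and 0 of 8 had an unadjusted p under 0.05, where 3.82% did. Of the 8 probes, 3 are second probes of the same genes and share their RNA, so these counts are not of independent measurements. For 4 of the 8 probes the 3 same-numbered pairs had 1 sign, where 35.8% of the 9220 tested probes with a value on every array did. The median half-width of the 95% confidence interval was 1.48 for ligand and 0.81 for receptor probes, against 1.06 over all tested probes. The intervals of single probes were wider or narrower than these medians, and none is adjusted for the number of probes.

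Ratios of a ligand to a receptor within an array do not depend on the scaling of that array. The log2 ratio of BMP4 to BMPR1B was 0.45, -1.70 and 0.91 for the large wave lambs and -1.23, -0.15 and -3.40 for the small wave lambs. It had a large wave mean of -0.11 ± 1.39 and a small wave mean of -1.59 ± 1.66 (SD, n = 3 each). The difference of 1.48 was larger than the SD in large wave skin and smaller than that in small wave skin. Pairs 1 and 3 had the higher ratio in the large wave lamb, by 1.68 and 4.31, and pair 2 in the small wave lamb, by 1.55. The ratio of -3.40, and with it the value of pair 3, rests on a BMP4 signal not well above background, and without small wave replicate 3 the difference was 0.57. The log2 ratio of INHBA to ACVR2A was 1.86, 2.49 and 3.01 for the large wave lambs and 2.25, 2.22 and 3.38 for the small wave lambs. Its difference of -0.16 was smaller than the SD in either group, 0.58 and 0.66. No test was run on the ratios, whose genes were chosen with results of these data known.

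**Figure D4:**
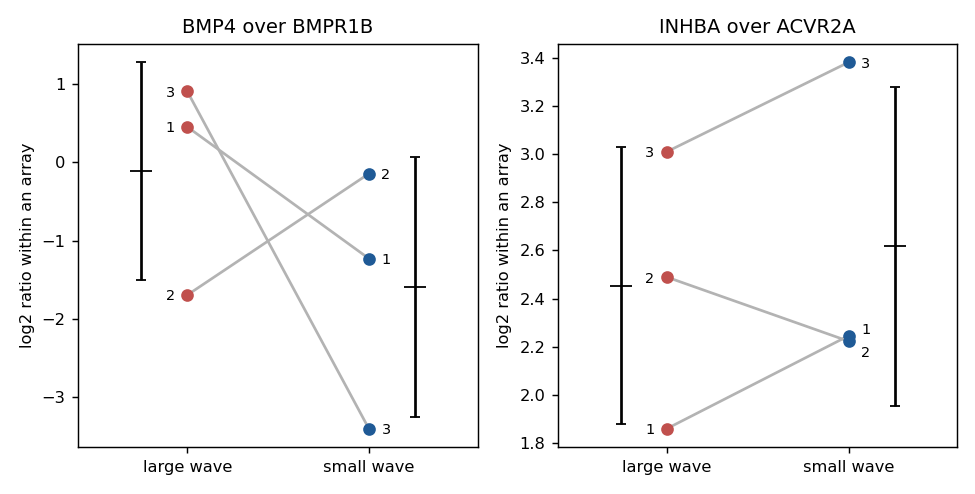
Log2 ratio of a ligand's to a receptor's first probe within each array; points are lambs with their replicate number, grey lines join same-numbered lambs, and black bars give the mean ± SD of 3 lambs. The groups overlap in both panels, and pair 2 runs against pairs 1 and 3 in both.

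Few other genes of the pathway could be read. Of 65 listed genes (ligands, receptors, Smads, inhibitors and binding proteins, and targets) 11 were named on the array and 7 had a tested probe, of which 4 were on the higher and 3 on the lower side in large wave skin (median 0.10). Of all 346 named genes tested 139 were higher and 207 lower (median -0.15). None of the 7 had an adjusted or unadjusted p under 0.05 by limma, where 0 and 10 of the 346 did. No Smad gene was among those named. Beside the 5 genes above, BAMBI and DCN were tested.

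BAMBI, a decoy receptor without kinase that dampens BMP and TGF-beta signals, was bright. At its first probe the signals were 3687, 1280 and 1310 for the large wave lambs and 2022, 793 and 124 for the small wave lambs. Large wave replicate 2 was marked as an outlier and left out, and the difference was 0.95 ± 0.74 (SE, adjusted p = 0.779 by limma), or 0.38 at the second probe (2 large wave arrays). BAMBI, like BMP4, TGFB1 and the first ACVR2A probe, had its lowest signal on small wave replicate 3, the dimmest array. DCN encodes decorin, a dermal proteoglycan that binds TGF-beta. Its differences were 0.097 ± 0.51 over 2 arrays per group and 0.22 ± 0.46 (SE) at its second probe, with adjusted p of 0.967 and 0.907 by limma. On small wave replicate 3 the first DCN spot had 89.6 and was marked as an outlier, where the second probe had 3890.

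Of the other listed genes, 3 had no array with a signal well above background. NOG, the BMP antagonist noggin, had signals of 1.80 to 10.5 over both probes and was well above background on 0 of 6 arrays at each. BMP15, an oocyte factor, had 1.39 to 2.33, likewise on 0 of 6 arrays. So did MSTN, myostatin of skeletal muscle, whose processed signal, as the median over its 5 spots on an array, was 1.90 to 4.73.

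Markers of skin were present: the 9 listed hair follicle genes named on the array were well above background on all 6 arrays, as were SFN of epidermis and DCN of dermal fibroblasts, the 1 gene of each of those lists on the array. SFN differed by -1.12 and DCN by 0.097 (large minus small wave, log2 scaled signal), each over the arrays on which its spot was not marked as an outlier. Markers of other cell types were compared by the summed scaled signal, in multiples of the array's 75th percentile. For the 2 of 5 adipocyte markers tested (PLIN1, LPL), neither well above background on all 6 arrays, it was 0.112 to 0.122 in large wave and 0.129 to 0.299 in small wave arrays. For the 1 of 5 endothelial markers tested (AQP1) it was 0.0807 to 0.112 and 0.183 to 1.35. These 2 sums did not overlap between groups, as 11.2% of single probes did not, 6.18% with the large wave arrays below. They and SFN had the lower values in large wave skin, as 207 of the 346 named genes tested had. Of the other markers, DCN, TYR of melanocytes, HBB of red blood cells, 5 of 9 hair follicle genes and 1 of 2 muscle genes were higher. The 2 immune genes were lower. The sums for skeletal muscle (2 of 6 markers), melanocytes (1 of 5), immune cells (2 of 6) and red blood cells (1 of 4) overlapped between groups. The part of any of these cell types in the values of BMPR1B and ACVR2A was not tested.

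Profiles were compared over the 6 arrays as the root mean square difference of log2 scaled signals, each centred on its own mean. This distance also depends on how much a gene varied. The root mean square of a gene's own centred profile was 1.18 for BMP4, 0.47 for INHBA, 0.81 for TGFB1, 0.43 for BMPR1B and 0.25 for ACVR2A. Among the 5 genes the smallest distances were INHBA and BMPR1B, at 0.45, BMPR1B and ACVR2A, at 0.48, and INHBA and ACVR2A, at 0.51. The distances of 0.48 and 0.51 exceeded the own value of each gene in the pair, so they show no shared profile. That of 0.45 exceeded the own value of BMPR1B and lay just below that of INHBA, so it shows little more. BMP4 and TGFB1 were 0.90 apart, and BMP4 and INHBA, at 1.57, were the farthest. Of 300 other named genes, the nearest to BMP4 were the kallikrein KLK1, at 0.35, and the tight junction gene CLDN4, at 0.59, where the median gene was at 1.35. Nearest to INHBA were the clock gene CRY1, at 0.087, and the transcription factor GATA3, at 0.096, with a median of 0.67. TGFB1 was nearest to the translation factor EEF1D, at 0.12, and the zinc transporter SLC39A7, at 0.32, with a median of 1.02. For BMPR1B they were the demethylase FTO, at 0.23, and the adhesion gene MADCAM1, at 0.25, with a median of 0.68. For ACVR2A they were the copper chaperone ATOX1, at 0.11, and thioredoxin (TXN), at 0.13, with a median of 0.57. All profiles share the arrays and their scaling, and with 6 arrays close profiles are easily found among 300 genes.

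**Figure D5:**
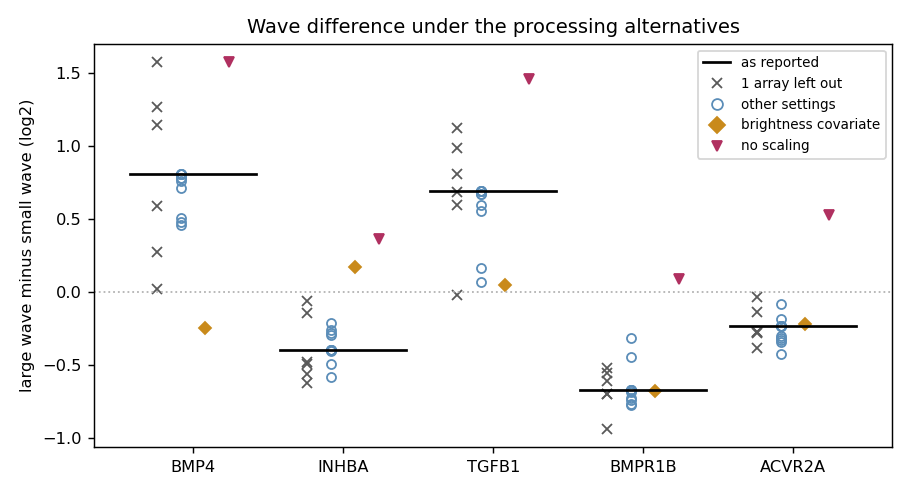
Wave difference of each gene's first probe (log2) as reported (black line), with each of the 6 arrays left out (crosses), with array brightness as a covariate (diamonds), with no scaling between arrays (triangles) and under the other settings (circles). BMP4 spans -0.25 to 1.57, whereas BMPR1B is below 0 in every setting except no scaling, at 0.092.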

How the data were processed

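Per the file headers, the authors deposited the intensity of each spot as written by Agilent Feature Extraction 10.7.3.1 (10.7 per the submitters' processing notes), background-subtracted and not scaled between arrays. Their deposited table of log2 values matched quantile-normalised signals (lowest r of an array 0.999997, across probes); no source used here names its normalization.

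All 6 arrays lay on 1 slide with 1 scan. Spots marked as outliers were left out, spots of a probe averaged, and the 75th percentile taken over 15208 spots without controls. Probes well above background on at least 3 arrays were tested, 10047 in all, with all 8 probes of the 5 genes among them. limma 3.58.1 in R 4.3.3 (variance trend, Benjamini-Hochberg, threshold 0.05) compared large with small wave; it was tested on simulated data. RefSeq accessions matched the symbols of assembly ARS-UI_Ramb_v3.0 for 767 of 786 probes.

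Genes, lists and naming rules (all probes of the 5 genes, up to 6 other pathway genes, the 2 nearest profiles) were chosen with earlier results of these data known. A gene's first probe is its tested probe with the highest mean. Same-numbered lambs deviated together (r = 0.30, 0.18 and 0.20 across 9220 probes), so the numbers were taken to pair them; pairs also share a slide column. A further listed pathway gene, untested, is not reported here. Array number limits the precision.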

Additional observations from a re-analysis of the deposited data

How the results depend on the processing

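No probe passed the adjusted threshold under any of the alternative fits, and 384 had an unadjusted p under 0.05. That number was 584 with the replicate block, 142 when slide row was a block, and 2031 with array weights, a fit of 9220 probes. With 1 array left out it was 155 (without large wave replicate 3) to 1764 (without small wave replicate 1). With the replicate block the differences were 0.81 (BMP4), -0.40 (INHBA), 0.69 (TGFB1), -0.67 (BMPR1B) and -0.23 (ACVR2A), with adjusted p from 0.624 to 0.797, and it changed no call. The intervals, SEs and p-values given with each gene are from fits without this block. At the second probes the block gave an SE of 0.355 for BMP4, 0.338 for INHBA and 0.502 for ACVR2A, against 0.786, 0.457 and 0.538 without it. The second INHBA probe then had an unadjusted p of 0.066 and an adjusted p of 0.624 by limma. With array brightness as a covariate BMP4 (-0.25) and INHBA (0.17) changed direction and TGFB1 was 0.048. With no scaling between arrays, chosen after seeing the data, INHBA (0.37), BMPR1B (0.092) and ACVR2A (0.53) did, all below the median of 0.74 that this setting gave over all probes. Leaving out 1 array gave 0.024 to 1.57 for BMP4, -0.63 to -0.065 for INHBA, -0.023 to 1.12 for TGFB1, -0.94 to -0.52 for BMPR1B and -0.38 to -0.037 for ACVR2A. At the second probes it gave -0.59 to 0.79 for BMP4, -1.26 to -0.44 for INHBA and -0.77 to -0.094 for ACVR2A. The ratio of BMP4 to BMPR1B ranged from 0.57 to 2.27, and that of INHBA to ACVR2A from -0.44 to 0.22, with 0.033 after quantile normalization and 0.047 in the deposited table. The cause was not tested. The filter for all 6 arrays removed the first probes of BMP4 and TGFB1, so it gave them no value.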
